A study of Mus musculus with 2 samples.

Results

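Penk, Pdyn and Tac1 encode the precursors of the main neuropeptides of striatal projection neurons, and they were taken from the files by gene symbol. They are 3 of the 32285 genes listed, and each symbol occurred once. RNA was measured with 10x Visium, which counts unique molecules (UMIs) per gene in small round spots of a tissue section, in 2 sections of wild-type C57BL/6 mouse brain, cut at 10 µm from fresh-frozen tissue and labelled ZT12. Both sections carry the same genotype, strain and time label, they are labelled as replicates 1 and 2, and no treatment, age or sex is given. Nothing in the labels says whether 1 or 2 animals were used, so the p-values reflect only how groups of spots vary between these sections, which may be technical. ZT12 is, by the usual convention, the time of lights off, and with a single time point no change over the day can be read.

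Striatal projection neurons are of 2 main kinds. Neurons of the indirect pathway carry a dopamine receptor (Drd2) and an adenosine receptor (Adora2a) and make proenkephalin (Penk), which is cut into the enkephalins, opioid peptides that act on delta and mu receptors. Neurons of the direct pathway carry another dopamine receptor (Drd1) and make prodynorphin (Pdyn), whose dynorphins act on the kappa receptor, and the substance P precursor (Tac1), whose peptide acts on the NK1 receptor. All of these genes are also used by smaller groups of neurons elsewhere, such as hippocampal granule cells for Pdyn and hypothalamic neurons for Penk and Tac1.

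On the mouse assembly GRCm38.p6, RefSeq places Penk on chromosome 4 at 4133536 to 4138815, Pdyn on chromosome 2 at 129686549 to 129699938 and Tac1 on chromosome 6 at 7555061 to 7562978. The promoter windows of Pdyn and Tac1, which direct-pathway neurons make together, are shown to set their letters beside the shared striatal pattern. Each window is 300 bases of RefSeq sequence around a transcript start, most of it upstream, and is written in the direction of transcription. Capitals mark the short core of the cyclic AMP response element, TGACG, found on either strand, and the rest is in lower case. Penk is named only.
Pdyn, chr2:129699889-129700188, minus strand: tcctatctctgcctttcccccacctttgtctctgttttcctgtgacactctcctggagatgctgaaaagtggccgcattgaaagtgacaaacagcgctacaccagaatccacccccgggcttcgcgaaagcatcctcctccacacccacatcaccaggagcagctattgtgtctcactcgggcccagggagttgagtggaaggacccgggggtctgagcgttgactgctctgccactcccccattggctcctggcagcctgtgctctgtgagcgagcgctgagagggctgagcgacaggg
Tac1, chr6:7554811-7555110, plus strand: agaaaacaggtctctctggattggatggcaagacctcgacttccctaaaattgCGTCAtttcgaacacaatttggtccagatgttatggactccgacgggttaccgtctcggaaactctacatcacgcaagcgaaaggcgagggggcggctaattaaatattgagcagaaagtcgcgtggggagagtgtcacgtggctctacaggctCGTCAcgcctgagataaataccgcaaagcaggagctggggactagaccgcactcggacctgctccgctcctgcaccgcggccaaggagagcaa

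The Tac1 window held the short core at 2 places, both on the opposite strand, and the E-box CACGTG once. This Pdyn window held neither, nor did the window of a second Pdyn transcript start, which is not printed. Among 32851 windows of the same length, 20.8% held the short core on either strand, 7.15% the E-box and 1.79% the full element TGACGTCA, which overlaps the short core and was found in none of the windows of Pdyn or Tac1. TATAAA was likewise found in none of them, against 13.6% of all windows. A match is only a match of letters in this window.

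Spots with at least 500 UMIs were kept, 3030 in section 1 (median 18127 UMIs) and 2531 in section 2 (median 21555 UMIs). They share 1952 barcodes, which on this platform mark positions on the slide and recur between slides. Spots were grouped by expression alone into 16 regions, without the 3 peptide genes or any listed marker, and 12 of these regions had at least 30 spots in each section. A single region, number 11, had all 12 striatal projection neuron markers at 2-fold or more of the other spots in both sections, and it is called striatal here. It held 36 spots in section 1 and 183 in section 2, so most striatal values of section 1 rest on few spots. Those 36 spots had a median of 9602 UMIs, against 18222 in the rest of section 1, whereas the striatal spots of section 2 had 21716 against 21553. A spot can hold several cells, so more cells of a type and more RNA per cell cannot be told apart.

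All 3 peptide genes were highest in the striatal spots, in both sections. Levels are given as counts per 1000000 UMIs (CPM). Penk had 1044 CPM in the striatal spots of section 1 (exact 95% interval 939 to 1158) and 1705 in those of section 2 (1666 to 1746), against 69.5 and 210.2 outside. Its striatal level was thus 15.03 times the outside level in section 1 and 8.11 times in section 2. Pdyn had 219.8 CPM in the striatal spots of section 1 (173 to 275) and 179.9 in those of section 2 (167 to 193), against 15.5 and 26.6 outside, which is 14.2 and 6.76 times. Tac1 had 304 CPM (248 to 368) and 329 (312 to 347), against 39.6 and 73.1 outside, which is 7.68 and 4.502 times. The intervals cover counting error only. Between sections the striatal level of Penk differed beyond them, being higher in section 2, while those of Pdyn and Tac1 overlapped.

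Counts summed per section and region were fitted with edgeR's quasi-likelihood test, with a term for the section and Benjamini-Hochberg adjustment over 7178 tested genes. The log2 fold change of the striatal region over the mean of the other 11 regions was 3.40 ± 0.12 (SE) for Penk, with an adjusted p of 1.53e-22. It was 3.21 ± 0.17 for Pdyn, with an adjusted p of 1.82e-17. It was 2.62 ± 0.14 for Tac1, with an adjusted p of 5.66e-17. In the order of all tested genes by this fold change Penk stood at rank 13, Pdyn at 18 and Tac1 at 32. All 3 were called higher, that is, at an adjusted p under 0.05 and at least 2-fold, as were 2.51% of all genes tested, while 0.181% were called lower. The section term removes the mean difference between sections, so the p-values rest on the scatter that remains over the regions. Without that term Penk had 3.39 ± 0.45 (adjusted p 5.21e-05 by edgeR). Pdyn then had 3.43 ± 0.37 (adjusted p 4.92e-06) and Tac1 2.70 ± 0.29 (adjusted p 5.00e-06). With the striatal sum of either section left out in turn, the remaining striatal sum was assumed to vary like the sums of the other regions, and the fold change ran from 3.18 to 3.73 for Penk, from 2.91 to 4.17 for Pdyn and from 2.51 to 2.89 for Tac1.

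Striatal spots of section 1 also held RNA of the choroid plexus, the epithelium that makes cerebrospinal fluid. Its 4 markers summed to 9786 CPM there against 2333 outside, and the 3 ependymal markers to 63.6 against 10.4. In section 2 the same sums were lower in striatal spots, 1976 against 2851 and 10.0 against 16.9. Their part in the striatal values of section 1 was not tested.

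**Figure D1:**
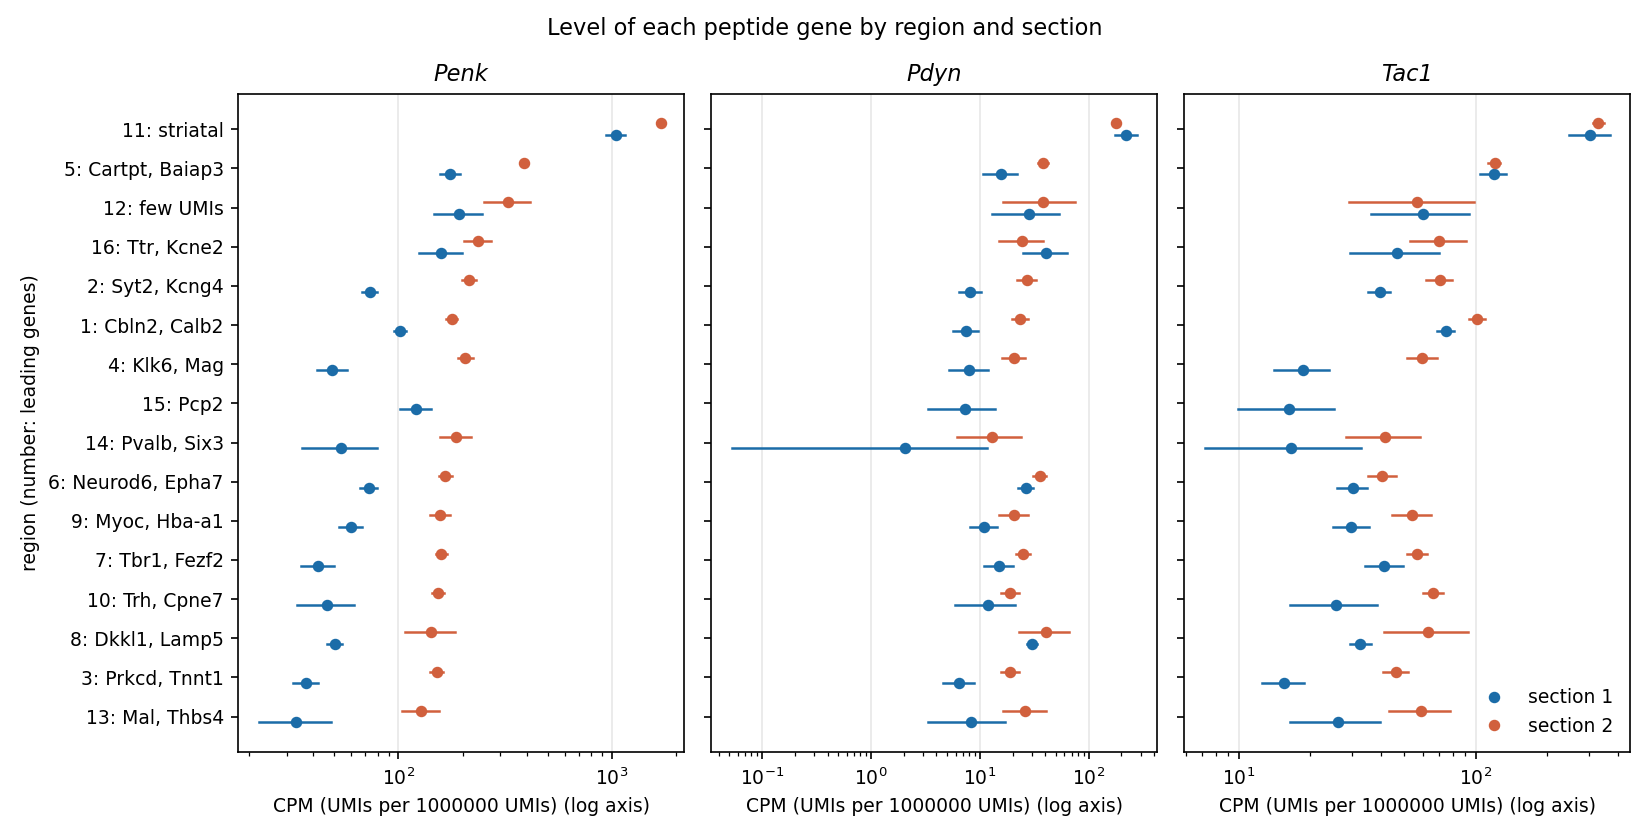
CPM (x axis, log scale) of Penk, Pdyn and Tac1 in each of the 16 regions (y axis, with leading genes, ordered by the mean Penk level), for section 1 (blue) and section 2 (orange); bars are exact 95% counting intervals. The striatal region is to the right of every other region in all 3 panels, and outside it the orange Penk points lie to the right of the blue ones in each of the 14 regions present in both sections.

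Single spots showed the same pattern with wide variation. Penk in the 36 striatal spots of section 1 ran from 0 to 21.3 UMIs per 10000 with a median of 9.48, and in the 183 of section 2 from 1.54 to 34.4 with a median of 15.7. The outside medians were 0.466 and 1.69. Only 18 of 2994 outside spots of section 1 and 2 of 2348 of section 2 reached the striatal median of Penk, and 13 of those 18 were in region 12, a region of spots with few UMIs (median 1826 in section 1). Region 12 had the striatal markers at a median of 2.09 times the other spots in section 1 and 1.27 times in section 2. Spots chosen by their share of striatal markers in place of the region numbered 74 in section 1, of which 34 were in region 11, and 200 in section 2, of which 175 were. Whether spots outside region 11 hold striatal tissue was not tested. Pdyn had striatal medians of 1.61 and 1.502 per 10000, with highest values of 5.76 and 7.08, and outside medians of 0 in both sections. Tac1 had striatal medians of 2.96 and 2.67, with highest values of 11.6 and 10.4, against 0 and 0.535 outside. Tac1 had the most outside spots at its striatal median, 50 in section 1 and 69 in section 2; 33 of those 69 were in region 5 and 18 in region 1.

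A UMI of Penk was found in 94.4% of striatal spots of section 1 and 100% of those of section 2, but also in 61.0% and 94.4% of outside spots. With each spot thinned to 5000 UMIs, which left out 6 striatal and 173 outside spots of section 1 and 1 and 29 of section 2, the Penk shares were 95.6% and 99.3% in striatal spots against 27.2% and 59.9% outside. For Pdyn the unthinned counts were 27 of 36 and 162 of 183 striatal spots, against shares of 19.9% and 40.8% outside. Thinned, the shares were 66.2% and 53.0% against 6.03% and 12.1%. For Tac1 the unthinned shares were 97.2% and 97.8% against 40.8% and 68.5%, and the thinned ones 80.5% and 74.8% against 15.4% and 28.2%. Unthinned, 72.2% of striatal spots in section 1 and 86.9% in section 2 held all 3 transcripts, against 7.18% and 29.3% of outside spots.

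**Figure D2:**
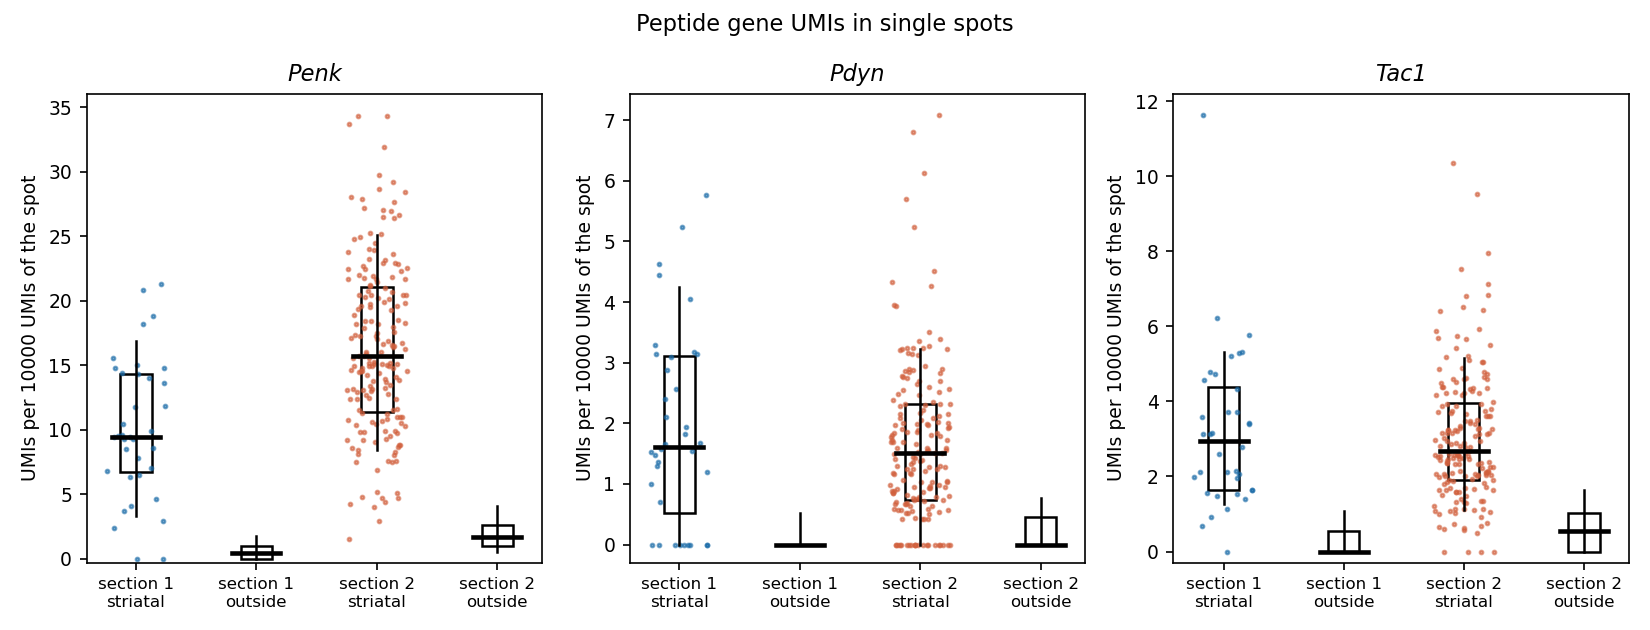
UMIs per 10000 UMIs of the spot (y axis) for Penk, Pdyn and Tac1 by section and place (x axis); coloured points are the striatal spots, boxes span the quartiles with the median as a thick line, and thin lines run from the 10th to the 90th percentile. Outside spots are drawn as boxes only, and their medians lie below the lower quartile of the striatal spots in every panel.

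Across all 12 tested regions together, Penk, Pdyn and Tac1 each passed edgeR's test of any difference between regions, as did 60.1% of the genes tested. Outside the striatum the order of the regions differed between the 3 genes. For Penk and Pdyn only the striatal region stood apart from the next region beyond the spread between sections. For Tac1 regions 5 and 1 also stood apart, ranking next after the striatal region in both sections.

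Tac1 had 119 and 120.2 CPM in region 5 of sections 1 and 2, an area led by Cartpt, Baiap3 and Zcchc12. Its log2 fold change there was 1.08 ± 0.14 with an adjusted p of 3.27e-07 by edgeR, and 1.69% of all genes were called higher in that region. In region 1, with Cbln2, Baiap3 and Calb2 among its leading genes, Tac1 had 74.8 and 101.8 CPM. Its fold change of 0.71 ± 0.13 passed the adjusted p (1.94e-04) but not 2-fold.

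Penk in region 5 had 174 CPM in section 1 and 386 in section 2, the latter next after the striatal level, while in section 1 region 12 stood between them with 192 CPM. The log2 fold change in region 5 was 0.84 ± 0.13 (adjusted p 6.26e-06 by edgeR), under 2-fold. In region 13, led by Mal and other myelin genes and by Thbs4, Penk had its lowest level in both sections, 33.3 and 127.7 CPM. It was called lower there (-1.12 ± 0.23, adjusted p 0.00121 by edgeR), as were 0.279% of all genes, and the call was lost without the section term (adjusted p 0.555).

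Pdyn was highest outside the striatum, among tested regions with over 10 UMIs in each section, in region 6 of section 1 (26.3 CPM) and in region 5 of section 2 (38.0 CPM). Region 6 is led by Neurod6, Neurod2 and Epha7, genes of hippocampal and cortical excitatory neurons, and held 35.5 CPM in section 2. Its fold change was 0.62 ± 0.18 (adjusted p 0.00699 by edgeR), under 2-fold. Region 8, a cortical region with Lamp5 among its leading genes and 346 spots in section 1 and 14 in section 2, was not tested and had 30.3 and 40.5 CPM. The ratio of Pdyn to Penk UMIs was 0.364 and 0.214 in region 6 and 0.601 and 0.286 in region 8, against 0.211 and 0.105 in the striatal region. A ratio above the striatal one in both sections was not particular to these, as in region 7 (0.358 and 0.158) and region 13 (0.250 and 0.206). Others were below it in both, such as region 5 (0.0896 and 0.0986).

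Regions led by myelin and meningeal genes gave a level to read the others against. Region 4, led by Klk6 and Mag, had 48.8 and 206 CPM of Penk, 8.02 and 20.6 of Pdyn and 18.6 and 59.7 of Tac1. Region 9, led by Myoc and hemoglobin genes, had 59.7 and 157 of Penk, 10.99 and 20.7 of Pdyn and 29.8 and 54.0 of Tac1. A UMI of Penk was found in 87.2% of the spots of region 4 in section 2 (median 13225 UMIs), so a single Penk molecule in a spot of that section does not set a region apart. Whether these UMIs come from cells of the region or from elsewhere was not tested. Nor is this the lowest level, as region 3 had 151 CPM of Penk in section 2. Beyond the counting intervals of regions 4 and 9 and in both sections, Penk was higher in regions 5 and 12, Pdyn in region 6, and Tac1 in regions 1 and 5, besides the striatal region. Region 12 rested on 61 and 69 Penk UMIs.

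Outside the striatum all 3 genes had higher levels in section 2 than in section 1. The ratio of section 2 to section 1 was 3.03 for Penk, 1.72 for Pdyn and 1.85 for Tac1, against a median of 0.978 over 10198 genes with an average of at least 8 CPM. Penk was higher in section 2 in 14 of 14 regions present in both sections, with ratios from 1.48 to 4.23, Pdyn in 13 of 14 and Tac1 in 13 of 14. Of the 12 striatal markers 11 had a ratio above 1, with a median of 1.52. The highest was that of Adora2a, the adenosine receptor, at 4.07, and that of Scn4b, a sodium channel subunit, was 0.974. In section 2 the striatal spots held 7.32% of all UMIs and 39.0% of those of Penk, 34.8% of Pdyn and 26.2% of Tac1. In section 1 they held 0.590% of all UMIs and 8.18%, 7.76% and 4.36% of the 3 genes. Whether the larger striatal area of section 2 has a part in its outside levels was not tested, and the software version named in the file headers differs between the sections too, so these cannot be told apart.

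**Figure D3:**
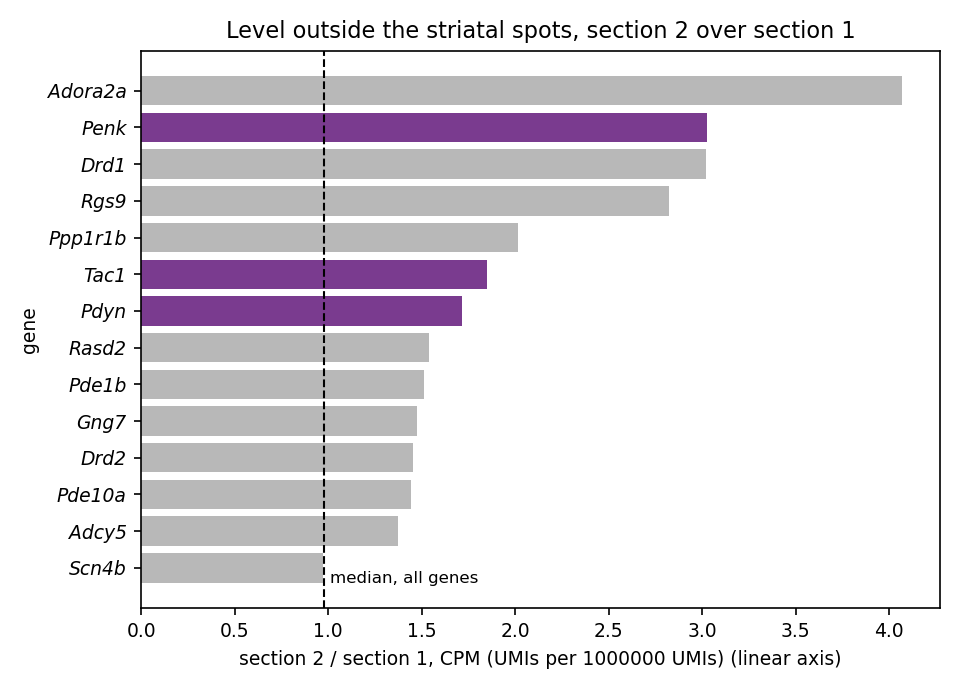
Level outside the striatal spots in section 2 divided by that in section 1 (x axis, linear, CPM) for the 3 peptide genes (purple) and 11 of the 12 striatal markers (grey; 1 is not drawn); the dashed line is the median over 10198 genes, 0.978. Penk, at 3.03, is exceeded by Adora2a alone among these genes.

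The other genes of these systems were taken from lists of pathway markers, receptors, precursors, processing enzymes and peptidases. In the striatal comparison, in which 2.51% of all genes tested were called higher, 4 of 4 tested indirect-pathway markers were called higher, with Adora2a at 4.03 ± 0.23, Gpr6, an orphan receptor, at 3.56 ± 0.24 and Drd2 at 3.05 ± 0.16 (log2 fold changes by edgeR). Of 6 tested direct-pathway markers 3 were called higher, namely Drd1 (3.37 ± 0.17), Isl1 (3.11 ± 0.50) and Slc35d3 (2.53 ± 0.25). Drd1, Drd2 and Adora2a are among the 12 markers that named the region, so their rise follows from that choice. Of 4 tested striosome markers none was called higher or lower at 2-fold, and Tshz1, a transcription factor, passed the adjusted p at 0.70 ± 0.18. The median over all 7178 genes was 0.02, against 3.31, 1.59 and 0.43 for these 3 lists. The counts and medians of the indirect and direct lists include markers that named the region, so they follow in part from that choice.

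Receptors for the peptides were sparse. Oprk1, the kappa receptor for dynorphins, had 5 UMIs in the striatal spots of section 1 (14.5 CPM against 2.11 outside) and 39 in section 2 (9.54 against 3.05). It was called higher at 2.15 ± 0.36, with an adjusted p of 2.69e-05 by edgeR. Oprl1, the nociceptin receptor, was the other tested opioid receptor and had -0.15 ± 0.12 (adjusted p 0.513). The enkephalin receptor genes Oprm1 and Oprd1 did not pass the filter on low counts, with 0 UMIs each in section 1 and 2 and 4 UMIs in section 2 in striatal spots. All outside spots together held 8 and 5 UMIs of Oprm1 and 24 and 40 of Oprd1 in sections 1 and 2. Near-zero counts of these genes were thus not particular to the striatal spots. Tacr1, the NK1 receptor for substance P, was called higher at 1.22 ± 0.31 (adjusted p 0.00565 by edgeR) on 1 striatal UMI in section 1 and 69 in section 2. Its level was 2.89 CPM against 5.01 outside in section 1 and 16.9 against 9.29 in section 2, so the sections did not show 1 direction by this measure. Tacr3 had 0.16 ± 0.45.

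In the same comparison 2.51% of all genes tested were called higher and 0.181% lower. Of the other precursors tested, Pnoc, which encodes nociceptin, was called lower at -1.15 ± 0.23 (adjusted p 4.47e-04 by edgeR), with 5.79 CPM against 18.5 outside in section 1 and 11.5 against 25.7 in section 2. Its striatal values rest on 2 UMIs in section 1 and 47 in section 2. Pomc and Tac2 did not pass. Of 9 genes of prohormone processing none was called at 2-fold, and Pcsk2, a convertase that cuts prohormones, passed the adjusted p at 0.49 ± 0.09. Of 8 tested peptidases 1 was called, Mme, which encodes neprilysin, a protease that degrades enkephalins and substance P, at 1.70 ± 0.23 (adjusted p 1.10e-06 by edgeR). It had 17.4 CPM against 6.06 outside in section 1 and 17.9 against 5.76 in section 2, on 6 and 73 striatal UMIs. The striatal fold changes of the 3 precursors thus stood beside enzyme lists with medians of 0.03 and 0.13.

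**Figure D4:**
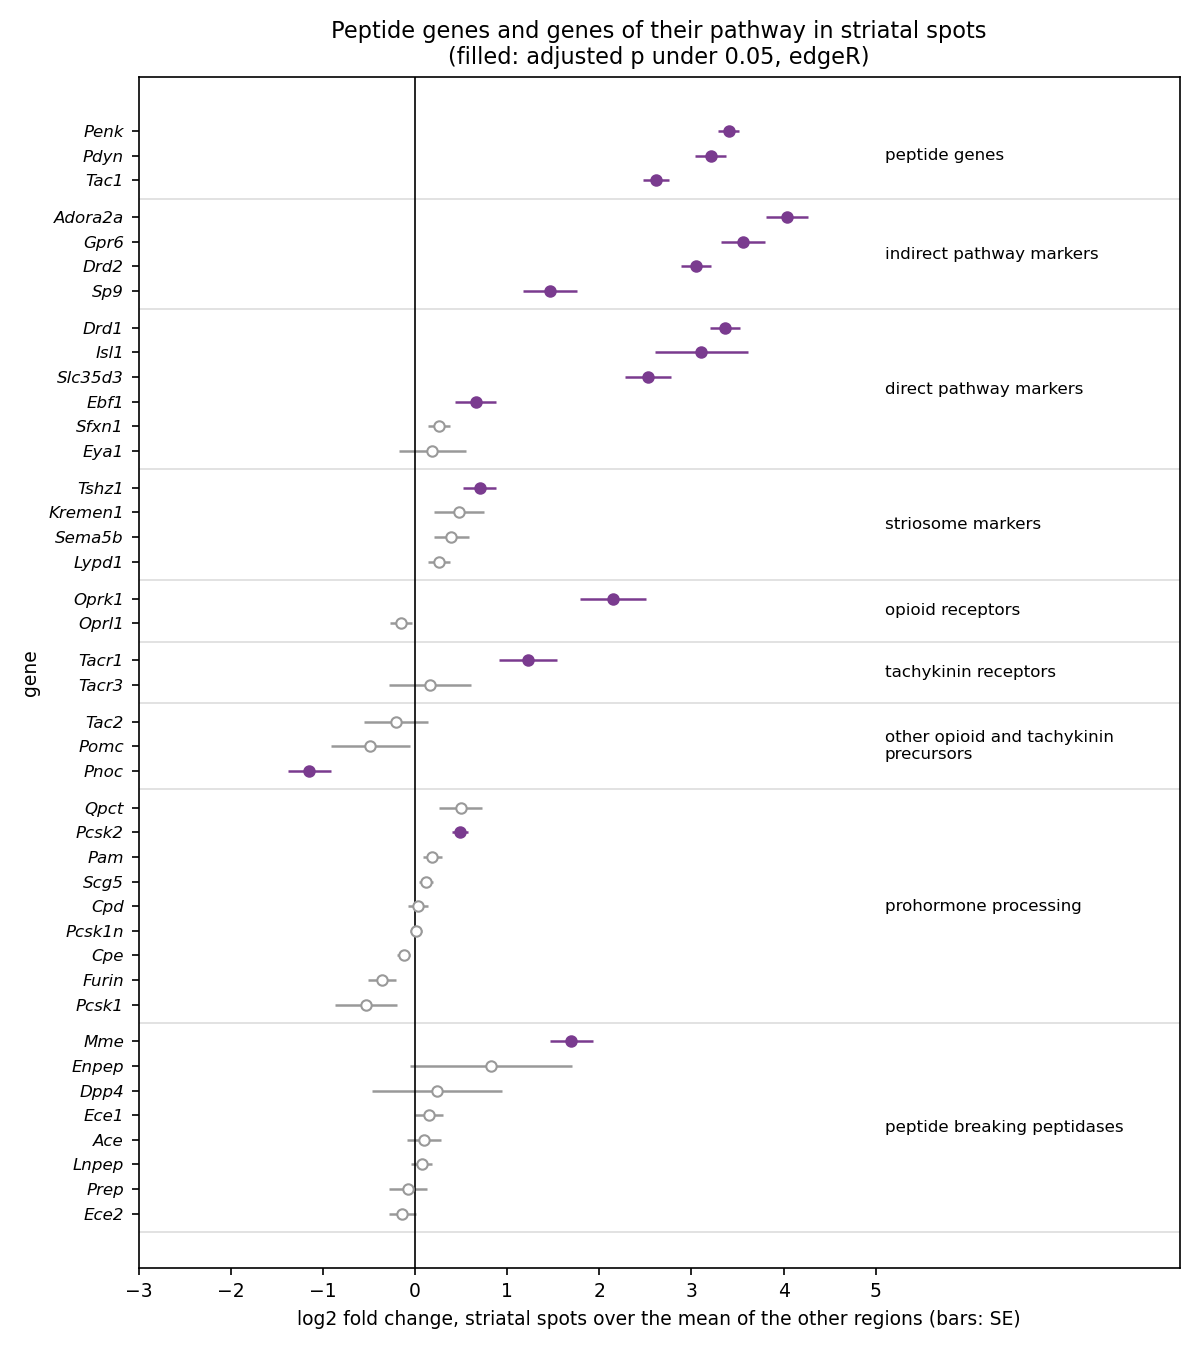
Log2 fold change of the striatal spots over the mean of the other regions (x axis, bars are SE) for the 3 peptide genes and the tested genes of their pathway lists (y axis); filled points passed an adjusted p of 0.05 by edgeR. Penk, Pdyn and Tac1 lie at 3.40, 3.21 and 2.62, among the pathway markers, while most processing enzymes and peptidases lie near 0.

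Over the 24 sums of sections and regions the 3 genes were positively correlated, by Pearson's r of log2(CPM + 1). These sums share library and depth, and the striatal pair carries much of the range. The sections were pooled, and the difference in level between them was not removed. Outside the striatum all 3 genes had higher levels in the same section, which can raise r without a shared pattern over regions. The part of this difference in the values below, with or without the striatal sums, was not tested. Penk and Tac1 had r = 0.90, Penk and Pdyn 0.88 and Pdyn and Tac1 0.83. Without the striatal sums these were 0.79, 0.75 and 0.65. Among 10236 genes the 4 most like Penk were Rgs9, Adora2a, Pde1b and Rasd2, with r from 0.91 to 0.94. All 4 are among the markers that named the striatal region, so their high r follows in part from that choice. Without the striatal sums they had 0.80 to 0.89. Those most like Pdyn were Rgs9, Tmem158, Akap5, Gng7 and Tef, with r from 0.89 to 0.95. Of these, Rgs9 and Gng7 are such markers too, with 0.88 and 0.74 without the striatal sums. Those most like Tac1 were Sesn3, Sv2c, Penk, Cpne5 and Dach1, with r from 0.87 to 0.92.

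Within the striatal region the 3 genes were only weakly correlated from spot to spot. Across the 36 spots of section 1 and the 183 of section 2, r was 0.15 and 0.13 for Penk with Pdyn and 0.11 and -0.0046 for Penk with Tac1. It was 0.20 and 0.22 for Pdyn with Tac1, the pair made by direct-pathway neurons, and 0.32 and 0.12 with depth removed. Spots share a library and differ in depth and in their share of striatal tissue, and counts are sparse, with a mean of 2.11 and 4.02 Pdyn UMIs per striatal spot, so such weak values are no finding. Penk had r = 0.06 and 0.25 with Drd2 and 0.22 and 0.23 with Adora2a, against 0.03 and 0.02 with Drd1 and 0.24 and 0.07 with Slc35d3, a direct-pathway marker. With depth and the sum of the striatal markers removed, the values of Penk were -0.12 and 0.12 with Drd2 and -0.11 and 0.09 with Adora2a. Both partners are part of that sum, which by itself lowers such values, so the turned sign in section 1 cannot be read. Tac1 had r = 0.33 and 0.21 with Drd1 and 0.10 and 0.11 with Drd2. Pdyn had r = -0.04 and 0.07 with Drd1 and -0.06 and -0.01 with Drd2, but 0.44 and 0.19 with Slc35d3 (0.27 and 0.17 with depth removed). Slc35d3 had only 12 UMIs in the striatal spots of section 1, and Tac1 had r = 0.07 and 0.09 with it. Other direct-pathway markers were mixed for Pdyn, with -0.05 and 0.08 for Isl1, 0.04 and -0.04 for Sfxn1, 0.28 and -0.04 for Ebf1 and 0.24 and 0.12 for Eya1.

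Some partners had unlike values in the 2 sections. These pairs were picked from many, and their difference between sections was not tested. Section 1 has 36 striatal spots with sparse counts, such as a mean of 1.94 Crym and 1.58 Rasgrp2 UMIs per spot. In section 2 Penk had r = 0.39 with Calb1, the calbindin gene of the striatal matrix, against 0.05 in section 1. Pdyn had 0.35 and Tac1 0.34 with Wfs1, a marker of ventral and medial striatum, against 0.07 and 0.02 in section 1. Others were larger in section 1, where Crym had r = 0.38 with Penk and 0.40 with Pdyn, against 0.06 and 0.12 in section 2, and Rasgrp2 had 0.50 with Tac1 against 0.05. With the myelin gene Mbp the values in section 2 were -0.42 for Pdyn, -0.44 for Tac1 and -0.22 for Penk, and -0.29, -0.33 and -0.09 with depth removed. In section 1, Mbp had r = 0.33 with Penk, -0.33 with Pdyn and -0.16 with Tac1. By ranks these were 0.07, -0.34 and -0.09. The genes with the highest mean r of both sections across striatal spots, out of 3926, included Ddn, Hpca, Tmem158 and Ppp1r1b for Penk (0.38 to 0.45), Ppm1a, Smim26, Ubr3, Adcyap1r1 and Akap11 for Pdyn (0.33 to 0.37) and Ankrd63, Slc7a14, Cdk17, Tesc and Syn1 for Tac1 (0.31 to 0.35). The means for Pdyn and Tac1 came mostly from section 1. The Pdyn genes had r of 0.46 to 0.60 in section 1 and 0.05 to 0.21 in section 2. The Tac1 genes had 0.37 to 0.55 and 0.12 to 0.27. Depth was not removed from these values, and Pdyn itself had r = 0.56 with log UMIs of the spot in section 1.

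The striatal spots were also ordered by the share of ventral and medial markers (Crym, Dlk1, Nts, Wfs1, Peg10) among their UMIs of these and of the dorsolateral markers Cnr1 and Gpr155. They were split into 3 ranges with near equal numbers of spots, which are ranges of a score and not cell types. Spots of the lowest range had fewer UMIs, with medians of 8920.5 and 19120 in sections 1 and 2, against 10791 and 23094 in the highest. The part of depth was not tested. In section 1 Pdyn had 109 CPM in the lowest range, 277 in the middle and 259 in the highest. In section 2 it had 142, 173 and 218. Tac1 had 209, 337 and 360 in section 1 and 267, 353 and 357 in section 2. Penk had 746, 1138 and 1228 in section 1 and 1608, 1685 and 1806 in section 2. In both sections all 3 genes had more in the highest than in the lowest range. Along the same order, markers of other tissue had a median log2 fold change of the highest over the lowest range of -0.35 for 5 fibre tract markers, -0.56 for 4 red blood cell markers and 0.50 for 3 choroid plexus markers, against -0.01 over all genes tested. Of these 12 markers 1 was called, a red blood cell gene that was lower, and their part in the values of the peptide genes was not tested.

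None of these differences passed the test. The log2 fold change of the highest over the lowest range was 0.65 ± 0.15 for Pdyn (adjusted p 0.243 by edgeR over 9099 genes), 0.44 ± 0.12 for Tac1 (adjusted p 0.531) and 0.26 ± 0.11 for Penk (adjusted p 1.0). Across all genes 0.011% were called at any size, which is 1 gene, the hemoglobin gene Hba-a1, at -0.75 ± 0.14, with 303 genes at an unadjusted p under 0.05. Spots ordered by the ventral markers alone gave Pdyn 0.90 ± 0.16 (adjusted p 8.65e-05) and Tac1 0.54 ± 0.14 (adjusted p 0.046), and a fit with no filter on low counts gave Pdyn 0.68 with an adjusted p of 0.0373. In section 1 the axis rests on few counts, since the spots of the highest range had 0 UMIs of Cnr1 and Gpr155 and several spots tied with those of the middle range.

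**Figure D5:**
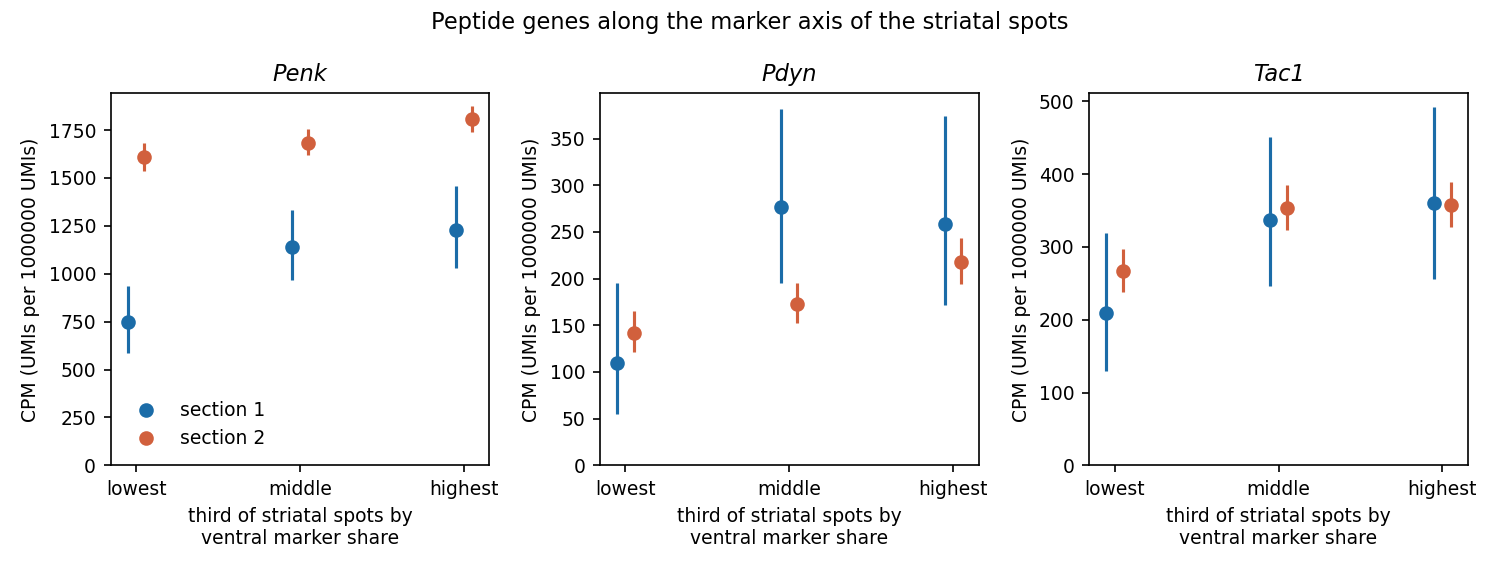
CPM (y axis, from 0) of Penk, Pdyn and Tac1 in the lowest, middle and highest range of the ventral marker share of striatal spots (x axis), for section 1 (blue) and section 2 (orange); bars are exact 95% counting intervals. Each gene lies higher in the highest range than in the lowest in both sections, and for Penk the sections stay apart throughout.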

How the data were processed

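The authors deposited whole-number UMI counts for each gene in each spot, not normalized, from Space Ranger. Version 1.2.2 is named per the file headers for section 1 and 2.0.1 for section 2; per the submitters' processing notes both used 2.0.1 and mm10, so version and section cannot be told apart. No source used here gives the annotation release. The peptide genes and gene lists were chosen with earlier results of these data known.

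Listed genes were left out of clustering, as was a random part of the others. Clustering used 2000 variable genes of 15930, centred per section, 30 principal components, 15 neighbours and Leiden clustering (resolution 1, Python 3.11.15, scikit-learn 1.9.0, igraph 0.11.9, leidenalg 0.10.2). Doublets were not called, because spots are not single cells. Genes not used to cluster were tested on sums per section and region with edgeR 4.0.16 (R 4.3.3), using TMM factors, filterByExpr and a section term (11 residual degrees of freedom), and checked with DESeq2 1.42.0. The fit was tested on simulated data. The ranges of the ventral marker share had 2 residual degrees of freedom, and 1 striatal spot of section 1 without UMIs of these markers was left out. The 5 most alike genes were named among those with at least 8 CPM over region sums, or 0.5 UMIs per striatal spot in each section. Other alternatives changed the normalization, filters, clustering, definition of striatal spots, thinning and kind of correlation, or left out a section. A fit without region 12 and correlations with the striatal marker sum removed were chosen after seeing the data. Some genes are not reported here.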

Additional observations from a re-analysis of the deposited data

How the results depend on the processing

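Counting each peptide gene under each alternative setting separately, 37 values were obtained, and all were at least 2-fold higher in striatal spots. The log2 fold changes ran from 3.18 to 3.73 for Penk, 2.91 to 4.17 for Pdyn and 2.44 to 2.89 for Tac1. Where a setting kept the striatal sums of both sections, each gene with a value was also called higher. With at least 10 counts in every sum Pdyn and Tac1 did not pass the filter and have no value. That filter left 35 genes called higher in place of 180 and 0 called lower in place of 13 (edgeR), among 1935 genes tested, of which 413 were lower at an unadjusted p under 0.05 and 0 of these by 2-fold. The definition of striatal spots by marker share, with 74 and 200 spots, gave 57 genes lower. Leaving out the striatal sum of a replicate gave 92 to 184 genes higher, with 92 without section 2. The lone striatal sum was then assumed to vary like the other regions' sums.

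Along the ventral marker share, ordering by ventral markers alone gave 17 called genes, Pdyn 0.90 and Tac1 0.54. No filter gave 4 genes and Pdyn 0.68. DESeq2 and a fit with no TMM factors called 0 genes, against 1, with 303 at an unadjusted p under 0.05 by edgeR. Leaving out each replicate, a value with no test, gave 0.14 to 0.74 for Penk, 0.59 to 1.26 for Pdyn and 0.39 to 0.81 for Tac1. The cause of these changes was not tested.

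The difference in the share of spots with a UMI, striatal minus outside, kept its direction throughout. Unthinned it was 33.4 points for Penk in section 1 and 5.58 in section 2, 47.7 for Pdyn in section 2, and 56.4 and 29.3 for Tac1. At 2000 UMIs it was 60.6 for Penk in section 2, 28.4 and 22.1 for Pdyn, and 40.9 and 31.2 for Tac1. The mean correlation of the sections was 0.19 for Penk with Pdyn by ranks, 0.036 with depth removed and -0.10 with depth and striatal markers removed, a change of sign of a weak value, and 0.27 for Pdyn with Tac1 by ranks. The 36 striatal spots of section 1, with 361 Penk, 76 Pdyn and 105 Tac1 UMIs, limit every value of that section.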
